A study of Mus musculus with 8 samples.

Results

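Cd36, Fabp4, Fabp5, Gpihbp1, Lpl, Pparg, Slc27a3, Slc27a4, Cav1 and Cpt1a are 10 genes by which capillary endothelium takes up, carries and uses fatty acids. They were picked by name from the 19505 genes with a symbol on the array, and each is measured by 1 probe set. In sorted lung EC of tumor-bearing mice, treatment with a TIE1 antibody shifted none of the 10 past an adjusted p of 0.05. Fabp4 had the largest difference, 1.45-fold lower, with values that overlapped between the treatments. Cd36 and Gpihbp1 lay within 0.16 and 0.105 log2 units over all 8 arrays.

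Lung EC came from 8 C57BL/6N mice, 8 weeks old, that carried subcutaneous tumors of LLC, the Lewis lung carcinoma line. Mice were injected intraperitoneally 2 times per week with control IgG (4 mice) or with an antibody that blocks the endothelial receptor Tie1 (4 mice, anti-TIE1 in the labels). Cells were sorted as CD31+ CD45- LYVE1- PDPN- Ter119- DAPI-, and the RNA of each mouse was hybridized to 1 Clariom S mouse array. The comparison thus asks whether Tie1 blockade alters these genes in lung EC of tumor-bearing mice. No group without a tumor was analysed here, and the sort pools capillary, arterial and venous EC. The antibody field of 3 anti-TIE1 samples names other targets, whereas all 4 titles name TIE1, which was followed. A protocol text in the labels speaks of liver, whereas the sample source and the growth text name lung.

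Lipoproteins in the blood carry most fatty acids as triglyceride. Lipoprotein lipase, held on the luminal face of capillary EC by GPIHBP1, releases the fatty acids, and CD36 and transport proteins of the SLC27 family (FATP) help to bring them into the cell, where fatty acid binding proteins carry them through the cytosol. EC pass fatty acids on to the tissue or burn some of them in mitochondria, and PPAR gamma is a nuclear receptor that drives many of these genes in capillaries and fat cells.

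Median intensity was 184 to 189.6 on the 8 arrays, and the spike-in controls added at hybridization were lower (10.40 to 10.51, log2 intensity) on IgG 1, IgG 2, anti-TIE1 3 and anti-TIE1 4 than on the other arrays (10.79 to 11.05). Endothelial markers were bright on every array. Means over 9 of 10 pan-endothelial markers measured were 11.35 to 11.44 in IgG-treated and 11.40 to 11.44 in anti-TIE1-treated mice. Those of the 10 general capillary markers, which include Gpihbp1 and Lpl, were 10.93 to 10.96 and 10.92 to 10.98. The median level of all probe sets was 7.54. Over all 22204 probe sets, limma called 0 (0%) at an adjusted p under 0.05, and at an unadjusted p under 0.05 it found 700 lower (3.15%) and 482 higher (2.17%) in anti-TIE1-treated mice, 5.32% in either direction.

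Against this background 0 of the 10 genes were called, and at an unadjusted p under 0.05 only Fabp4 was lower and none was higher. Means were lower in anti-TIE1-treated mice for 9 of the 10, all but Pparg, where 51.8% of all probe sets had lower means. For 8 of the 10 the difference was smaller than 0.11 log2 units in either direction. The median of the 10 differences was -0.04, against -0.0045 over all probe sets, and the median size of the difference was 0.037 against 0.069. All 10 genes overlapped between the treatments, as did all but 3.17% of the probe sets.

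**Figure D1:**
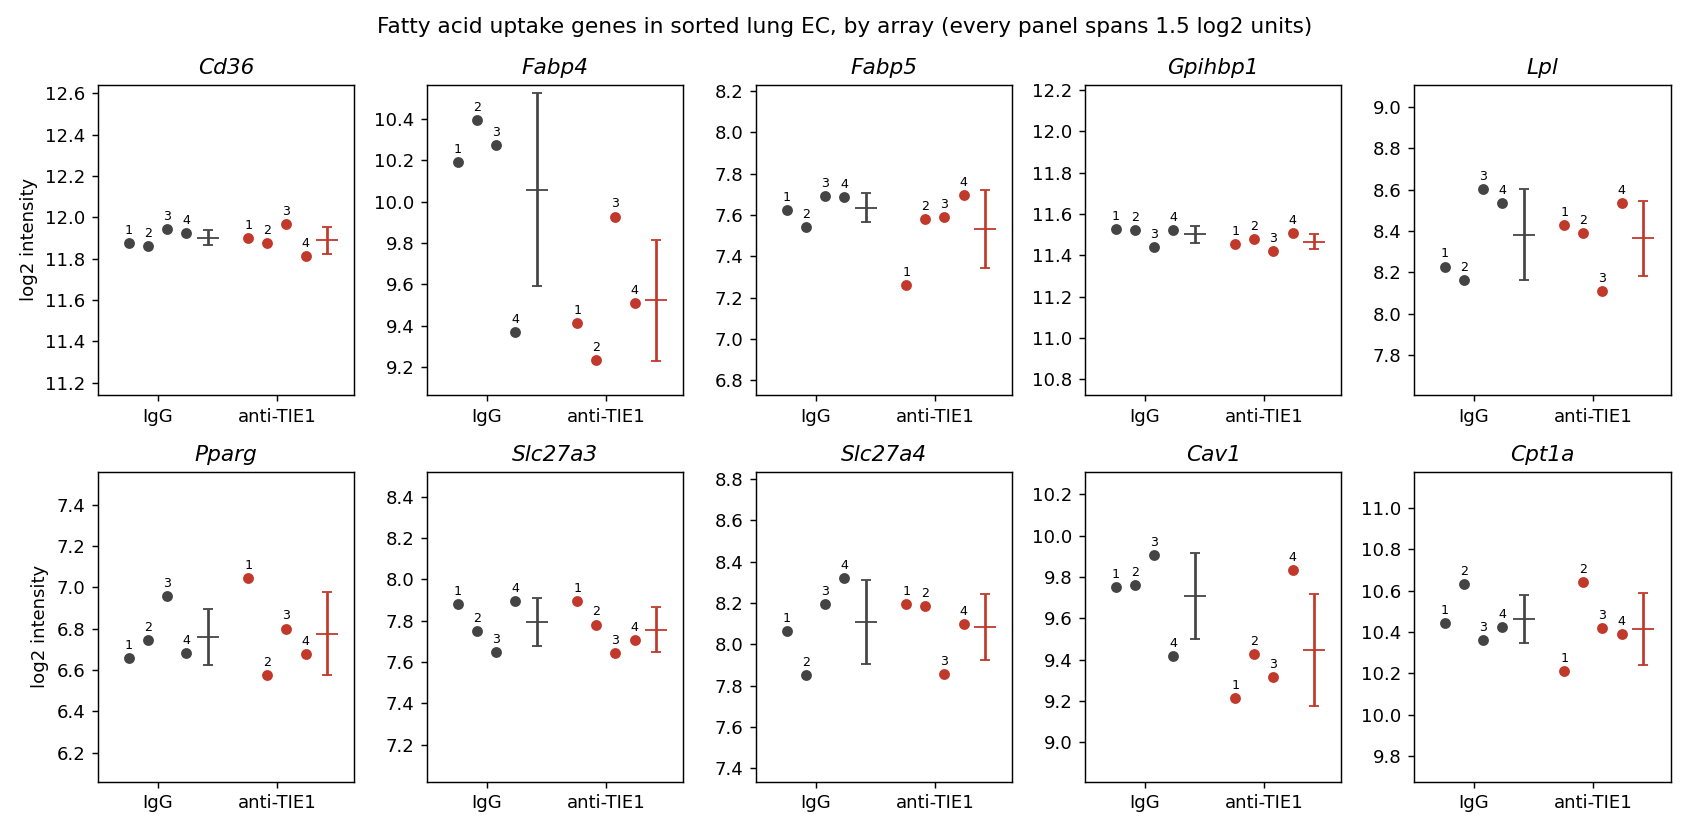
Log2 intensity (vertical axis) of the 10 genes on each array, IgG in grey and anti-TIE1 in red, numbered by replicate, with mean and SD beside the points (n = 4). Every panel spans the same height, so the wide scatter of Fabp4, from 9.23 to 10.40, can be set against the tight points of Cd36 and Gpihbp1.

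Cd36, the fatty acid translocase at the cell surface, measured 11.88, 11.86, 11.94 and 11.92 (log2 intensity) on arrays IgG 1 to 4. In anti-TIE1-treated mice it measured 11.90, 11.87, 11.97 and 11.81. The treatments overlapped fully, and the anti-TIE1 values held both the highest and the lowest of the 8. The log2 difference was -0.01 (standard error 0.07, adjusted p = 0.996 from limma). Its 95% confidence interval of -0.16 to 0.13 corresponds to ratios of anti-TIE1 over IgG from 0.895 to 1.10. Cd36 varied little among mice of 1 treatment, and 96.3% of genes had a larger within-group SD.

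Gpihbp1, which anchors lipoprotein lipase to capillary EC, measured 11.53, 11.52, 11.44 and 11.52 (log2 intensity) in IgG-treated mice. The anti-TIE1 values were 11.45, 11.48, 11.42 and 11.51. It was the steadiest of the 10 genes, with 98.9% of genes having a larger within-group SD, and IgG 3 alone of the IgG arrays lay low. The log2 difference was -0.04 (standard error 0.06, adjusted p = 0.989 from limma), with a 95% confidence interval of -0.18 to 0.10, or ratios of 0.885 to 1.07. Lpl, the lipase itself, is made in muscle and fat mostly by parenchymal cells and reaches the endothelium from them. It is also among the general capillary markers used here, and its mean level of 8.37 was above the median of all probe sets. Lpl measured 8.23, 8.16, 8.60 and 8.53 in IgG-treated and 8.43, 8.39, 8.11 and 8.54 in anti-TIE1-treated mice. High and low arrays occurred in both treatments, and the log2 difference between treatments was -0.02 (standard error 0.12, 95% confidence interval -0.29 to 0.26).

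Slc27a4 encodes FATP4, an acyl-CoA synthetase that traps fatty acids in the cell and is linked to their passage across endothelium. Its log2 intensities were 8.07, 7.85, 8.20 and 8.32 in IgG-treated and 8.19, 8.19, 7.85 and 8.10 in anti-TIE1-treated mice. The difference between treatments was -0.02 (standard error 0.11), yet the 4 arrays with low hybridization controls (7.85 to 8.10) all lay below the 4 with high ones (8.19 to 8.32). The difference of high minus low controls was 0.26 (standard error 0.08, adjusted p = 0.603, limma with both terms). Slc27a4 was the only one of the 10 that was higher on high controls at an unadjusted p under 0.05, as were 4.42% of all probe sets. Fabp4 was lower on high controls at that threshold (-0.43, standard error 0.18), so 2 of the 10 differed in either direction, as did 7.30% of all probe sets, of which 0 passed the adjustment. Lpl lay in the same order, at a mean of 8.26 on the arrays with low and 8.49 on those with high controls (adjusted p = 0.69), with overlap. Since each treatment holds 2 arrays of each kind, an additive shift between them cancels from the treatment differences over 8 arrays. Slc27a3, which encodes the related FATP3, ranged from 7.65 to 7.90 in both treatments (log2 difference -0.04, standard error 0.08).

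Fabp4 encodes the fatty acid binding protein of fat cells, which capillary and venous EC also make. Arrays IgG 1, 2 and 3 measured 10.19, 10.40 and 10.27 (log2 intensity), and IgG 4 measured 9.37. The anti-TIE1 arrays measured 9.42, 9.23, 9.93 and 9.51. Fabp4 was thus high in 3 of the IgG-treated mice, while IgG 4 lay among the anti-TIE1 values, below 3 of them. Means were 10.06 ± 0.47 (SD, n = 4) and 9.52 ± 0.29 (SD, n = 4), a log2 difference of -0.54 (standard error 0.22, 95% confidence interval -1.02 to -0.05), or 1.45-fold lower. The adjusted p from limma was 0.93, and the two-sided exact permutation test gave p = 0.114, where the smallest possible p is 0.0286. Only 0.266% of probe sets had a larger difference in size, but Fabp4 also scattered widely within the treatments, and 1.34% of genes had a larger within-group SD.

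Single arrays moved this value. Without IgG 4 the Fabp4 difference was -0.76 (standard error 0.15, adjusted p = 0.246 from limma). Without IgG 1, 2 or 3 or anti-TIE1 1, 2 or 4 it was -0.53 to -0.42, and none of these reached an unadjusted p under 0.05. Without anti-TIE1 3 it was -0.67 (standard error 0.22) and did. With any 1 array left out, arrays with low and high hybridization controls were no longer balanced between the treatments. The Fabp4 difference was -0.57 within the arrays with low hybridization controls and -0.50 within those with high ones. Fabp4 itself was at a mean of 10.01 on the former and 9.57 on the latter (adjusted p = 0.664 from limma). Fabp5, the epidermal family member that EC also express, measured 7.62, 7.54, 7.69 and 7.69 in IgG-treated and 7.26, 7.58, 7.59 and 7.70 in anti-TIE1-treated mice. Only anti-TIE1 1 lay low, and the log2 difference was -0.10 (standard error 0.10, 95% confidence interval -0.32 to 0.11), or -0.013 without that array. Between Fabp5 and Fabp4 in the gene order of the mouse genome lie Pmp2 and Fabp9, and Fabp12 follows Fabp4 on its other side. These family members had log2 differences of -0.02, 0.01 and -0.02, at levels of 6.23 to 6.45, below the median of all probe sets, where a change may be missed.

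**Figure D2:**
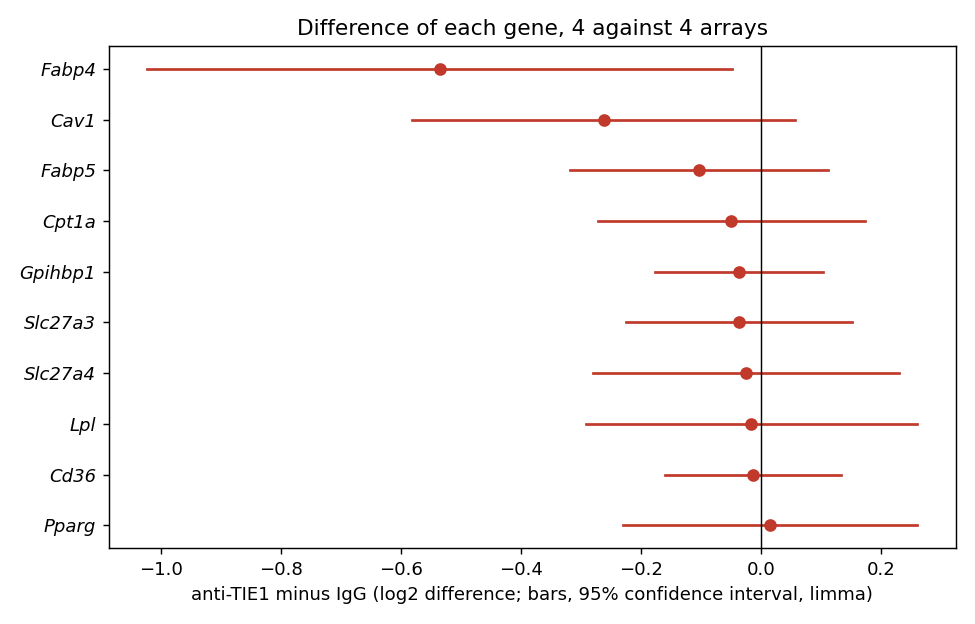
Difference in log2 intensity, anti-TIE1 minus IgG (horizontal axis), of each gene, with the point at the estimate and the bar spanning the 95% confidence interval from limma. The interval of Fabp4, from -1.02 to -0.05, does not reach 0 before correction for multiple testing, and the other intervals span 0.

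Other cell types that a lung EC sort could hold also varied among the arrays. Means over 8 of 10 platelet markers measured were 8.63, 8.78 and 8.81 on IgG 1, 2 and 3 and 8.29 on IgG 4, and 8.31, 8.44, 8.34 and 8.25 on anti-TIE1 1 to 4. Like Fabp4, this list was higher on IgG 1, 2 and 3 than on the other arrays. Ppbp, 1 marker of that list, encodes platelet basic protein and was picked after its values were seen. Among the IgG arrays it was at 10.54 to 10.82 on IgG 1, 2 and 3 and at 9.27 on IgG 4. Over the platelet list, means were lower in anti-TIE1-treated mice for 6 markers and higher for 2, with log2 differences of -0.95 to 0.09. Means over 7 lymphatic markers were also highest on IgG 1, 2 and 3, at 9.42, 9.51 and 9.37, with IgG 4 at 9.14 and the anti-TIE1 arrays at 9.02 to 9.09. Alveolar type 2 cells are epithelial cells that make surfactant, and the means over their 10 markers ran the other way, at 8.54 to 8.98 and 8.85 to 9.28, with IgG 4 the highest of the IgG arrays. At an unadjusted p under 0.05, 4 of 8 platelet and 4 of 7 lymphatic markers were lower in anti-TIE1-treated mice, as were 3.15% of all probe sets. Of 10 alveolar type 2 markers, 4 were higher at that threshold, as were 2.17% of all probe sets. Means went the other way for 2 lymphatic markers (up to 0.29) and for 1 alveolar type 2 marker (-0.10). None of the 3 lists had a marker past an adjusted p of 0.05. The gate is meant to remove lymphatic EC (LYVE1 and PDPN) and epithelium, which lacks CD31. Their part in the values of Fabp4 was not tested, and fewer cells of a type and less RNA per cell cannot be told apart in such bulk samples.

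Fat cells and alveolar macrophages are other known sources of Fabp4, and the gate is meant to remove both, macrophages and other leukocytes by CD45. All 6 adipocyte markers measured of 8, Adipoq, Plin1, Cidec, Lep, Retn and Cidea, were below the median level of all probe sets, and their mean was 6.82 to 6.95 in IgG-treated and 6.79 to 6.92 in anti-TIE1-treated mice. Of 8 alveolar macrophage markers measured of 10, 7 were below that level, and the list mean was 7.22 to 7.36 and 7.26 to 7.30. Car4, the other one, also marks aerocytes, a lung capillary EC type. Markers of leukocytes (9 of 10 measured) averaged 7.33 to 7.51 and 7.33 to 7.43, and those of cardiac muscle 7.33 to 7.42 and 7.36 to 7.49. The 7 aerocyte markers measured of 8 averaged 10.23 to 10.50 and 10.24 to 10.43. None of these lists separated IgG 1, 2 and 3 from the other 5 arrays by its range. The adipocyte, alveolar macrophage, leukocyte and cardiac muscle means lay within the range of the background controls (5.51 to 7.91), where a change may be missed. The part of these cell types in the values of Fabp4 was not tested.

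**Figure D3:**
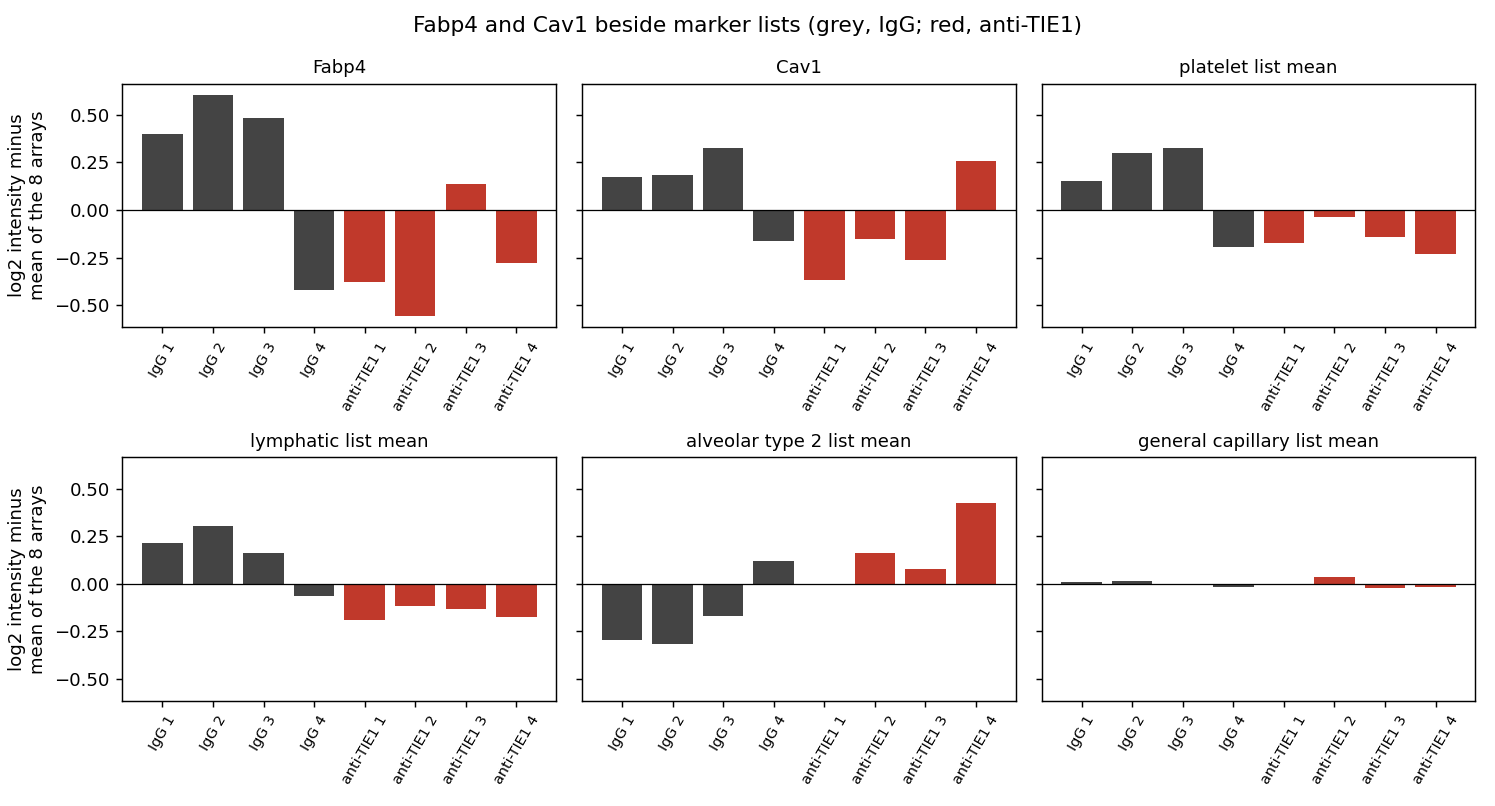
Log2 intensity on each array minus the mean of the 8 arrays (vertical axis), for Fabp4, Cav1 and the means of 4 marker lists, IgG in grey and anti-TIE1 in red. Fabp4 and the platelet list stand highest on IgG 1, 2 and 3, the alveolar type 2 list stands lowest on them, and the general capillary list stays nearly flat.

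Among 9934 genes at or above the median level, Fscn1 and Ebf1 had profiles most like that of Fabp4 over the 8 arrays, with Pearson's r of 0.969 and 0.965. Fscn1 encodes the actin-bundling protein fascin and Ebf1 a transcription factor of B cells and fat cells. Ebf1 measured 9.62, 9.51, 9.56 and 8.91 in IgG-treated and 8.86, 8.92, 9.37 and 9.04 in anti-TIE1-treated mice (log2 intensity). As for Fabp4, IgG 4 lay among the anti-TIE1 values and anti-TIE1 3 stood above the others of its treatment. These genes were picked for their r, which therefore has no test.

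Cav1 encodes caveolin-1, the coat protein of the caveolae that crowd lung capillary EC and that take part in the surface display of CD36. It measured 9.75, 9.76, 9.91 and 9.42 (log2 intensity) in IgG-treated and 9.21, 9.43, 9.32 and 9.83 in anti-TIE1-treated mice. In each treatment 3 arrays lay together and 1 lay with the other treatment, IgG 4 low and anti-TIE1 4 high. Means were 9.71 ± 0.21 (SD, n = 4) and 9.45 ± 0.27 (SD, n = 4), and the log2 difference was -0.26 (standard error 0.14, 95% confidence interval -0.58 to 0.06, adjusted p = 0.954 from limma), or 1.20-fold lower. The two-sided exact permutation test gave p = 0.20. Without anti-TIE1 4 the difference was -0.39 (standard error 0.12, adjusted p = 0.973 from limma), and without anti-TIE1 1 it was -0.18 (standard error 0.15).

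The other caveolar genes were closer to 0. Lower means were seen for 5 of the 9 measured and higher ones for 4, the median difference was -0.02, and at an unadjusted p under 0.05 there was none. Cav2, the partner caveolin that lies next to Cav1 in the genome, had a log2 difference of -0.08 (standard error 0.07). Cavin3, a coat protein, had one of -0.10 (standard error 0.07). Its values did not overlap between the treatments, which also held for 3.17% of all probe sets. Pacsin3, which bends membranes, had one of -0.09 (standard error 0.07). Plat, encoding tissue plasminogen activator, and Trp53bp1, a DNA damage protein, had the profiles most like that of Cav1 (r = 0.950 and 0.963). Plat measured 9.28, 9.32, 9.36 and 9.13 in IgG-treated and 8.88, 9.18, 8.96 and 9.41 in anti-TIE1-treated mice, with anti-TIE1 4 above the IgG values. For Cav1 that array lay between IgG 2 and IgG 3.

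Cpt1a encodes the transporter by which long-chain fatty acids enter mitochondria, the gate of fatty acid oxidation in EC. It measured 10.44, 10.63, 10.36 and 10.42 (log2 intensity) in IgG-treated and 10.21, 10.64, 10.42 and 10.39 in anti-TIE1-treated mice. Replicate 2 was the highest of both treatments, and the log2 difference was -0.05 (standard error 0.10, 95% confidence interval -0.27 to 0.17, adjusted p = 0.99 from limma). Pparg, the nuclear receptor, measured 6.66 to 6.96 in IgG-treated and 6.58 to 7.04 in anti-TIE1-treated mice. It was the only one of the 10 below the median level and, like Fabp5 and Slc27a3, lay within the range of the array's background controls (5.51 to 7.91), where a change may be missed. The log2 difference of Pparg was 0.01 (standard error 0.11, 95% confidence interval -0.23 to 0.26).

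Many PPAR target genes carry copies of the letters AGGTCA, a core motif that nuclear receptors bind. RefSeq start sites of assembly GRCm38.p6 were matched for 6 of the 10 genes (9 windows of 250 bases before a start). Of the 9 windows, 4 hold AGGTCA or its reverse complement TGACCT, where 14.0% of all 32851 windows do. The 9 are not independent, since Pparg has 3 windows and Cav1 has 2, and 2 of the 4 belong to Pparg. This count was not tested. The direct repeat AGGTCANAGGTCA, searched on both strands, was in none of the 9 and in 0.03% of all windows. The windows of Cd36 (chr5:17835897-17836146, minus strand), Cpt1a (chr19:3323051-3323300, plus strand) and Cav1 (chr6:17306085-17306334, plus strand, the first of its 2 windows) are shown because these genes stand for surface uptake, oxidation and caveolae, with the core motif in capitals.
Cd36: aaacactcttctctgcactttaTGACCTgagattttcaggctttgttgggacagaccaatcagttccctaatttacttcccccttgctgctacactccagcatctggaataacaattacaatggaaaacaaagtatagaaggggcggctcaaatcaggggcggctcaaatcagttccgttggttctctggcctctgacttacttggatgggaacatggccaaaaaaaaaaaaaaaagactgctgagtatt
Cpt1a: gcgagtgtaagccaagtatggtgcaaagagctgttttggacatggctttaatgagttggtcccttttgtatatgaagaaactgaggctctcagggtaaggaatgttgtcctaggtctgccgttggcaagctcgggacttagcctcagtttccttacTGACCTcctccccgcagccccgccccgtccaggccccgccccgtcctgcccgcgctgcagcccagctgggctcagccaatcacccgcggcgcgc
Cav1: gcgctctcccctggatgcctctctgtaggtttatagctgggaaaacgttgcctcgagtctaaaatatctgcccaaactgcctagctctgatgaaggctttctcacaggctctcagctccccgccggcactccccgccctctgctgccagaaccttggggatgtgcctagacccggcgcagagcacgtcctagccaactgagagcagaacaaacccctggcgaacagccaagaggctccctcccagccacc
The core motif starts 228 bases before the start of Cd36 and 94 bases before that of Cpt1a. Neither window of Cav1 holds it, nor do those of Slc27a3 and Slc27a4, while 2 of the 3 windows of Pparg do. A match is a description of the letters and not a site of binding. Fabp4, Fabp5, Gpihbp1 and Lpl had no entry in the table used.

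Lists of genes that work with the 10 had median log2 differences of -0.02 to 0.04, with single genes at -0.25 to 0.37. Of 101 listed genes of fatty acid handling, 90 were measured, 38 with lower and 52 with higher means. None was called. At an unadjusted p under 0.05 only Acaa2 was lower and only Gpam was higher, where 3.15% and 2.17% of all probe sets were. With 1 array left out the counts among the 90 were 0 to 3 lower, with 3 without IgG 3. They were 0 to 4 higher, with 4 without IgG 2 or anti-TIE1 1. Of all probe sets, 4.67% to 5.82% were then at that threshold in either direction. Of 12 other carriers and transporters 8 had lower means (median difference -0.01), with Got2, Mfsd2a and Scarb1 at 0.08, -0.01 and 0.01. Of 12 genes of lipoprotein lipolysis and lipoprotein receptors, 7 had higher means (median 0.04). Angptl4, an inhibitor of lipoprotein lipase, had a log2 difference of 0.16 (standard error 0.14), Lmf2, of the lipase maturation factor family, one of 0.13 (standard error 0.07), and the receptor gene Lrp1 one of 0.28 (standard error 0.18). With 1 array left out Angptl4 was at 0.05 without IgG 4 to 0.27 without IgG 1. Lrp1 was then at 0.14 without IgG 2 to 0.47 without IgG 3. Angptl4 also lay within the range of the background controls, as did the mean levels of Lrp1 (7.70) and Mfsd2a (7.70). Of 9 PPAR factors and coregulators 7 had higher means (median 0.02), with the coactivator Ncoa2 at -0.14 (-0.03 without IgG 4 and -0.24 without IgG 1) and Med1 and Ncoa1 at 0.08 and 0.04. Of 10 endothelial regulators of fatty acid uptake 6 had higher means (median 0.004). Foxo1, a transcription factor of EC quiescence, had a log2 difference of -0.12 (standard error 0.07, adjusted p = 0.954 from limma). Its IgG values did not overlap the anti-TIE1 values, which also held for 3.17% of all probe sets. Rbpj, the Notch transcription factor, was at 0.14 (standard error 0.10), and Flt1, a receptor of VEGF-B, at 0.11 (standard error 0.09).

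Inside the cell, 10 of 16 genes of fatty acid activation and storage had higher means (median 0.04). Gpam, which starts triglyceride synthesis, had a log2 difference of 0.29 (standard error 0.13, adjusted p = 0.93 from limma), Lipe, the hormone-sensitive lipase, one of 0.37 (standard error 0.17), and Dgat1, which completes triglycerides, one of 0.11 (standard error 0.09). With 1 array left out Gpam was at 0.21 to 0.36 and Lipe at 0.21 to 0.45. Of 22 genes of mitochondrial fatty acid oxidation 14 had higher means (median 0.02), beside the difference of -0.05 for Cpt1a. Acaa2, the thiolase that ends each round of oxidation, had a log2 difference of -0.23 (standard error 0.10, adjusted p = 0.93 from limma). Acadl, an acyl-CoA dehydrogenase, had one of -0.16 (standard error 0.08), and Etfdh, which passes the electrons on, one of 0.21 (standard error 0.14). With 1 array left out Acaa2 was at -0.31 to -0.15. The mean level of Etfdh (7.65) lay within the range of the background controls.

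**Figure D4:**
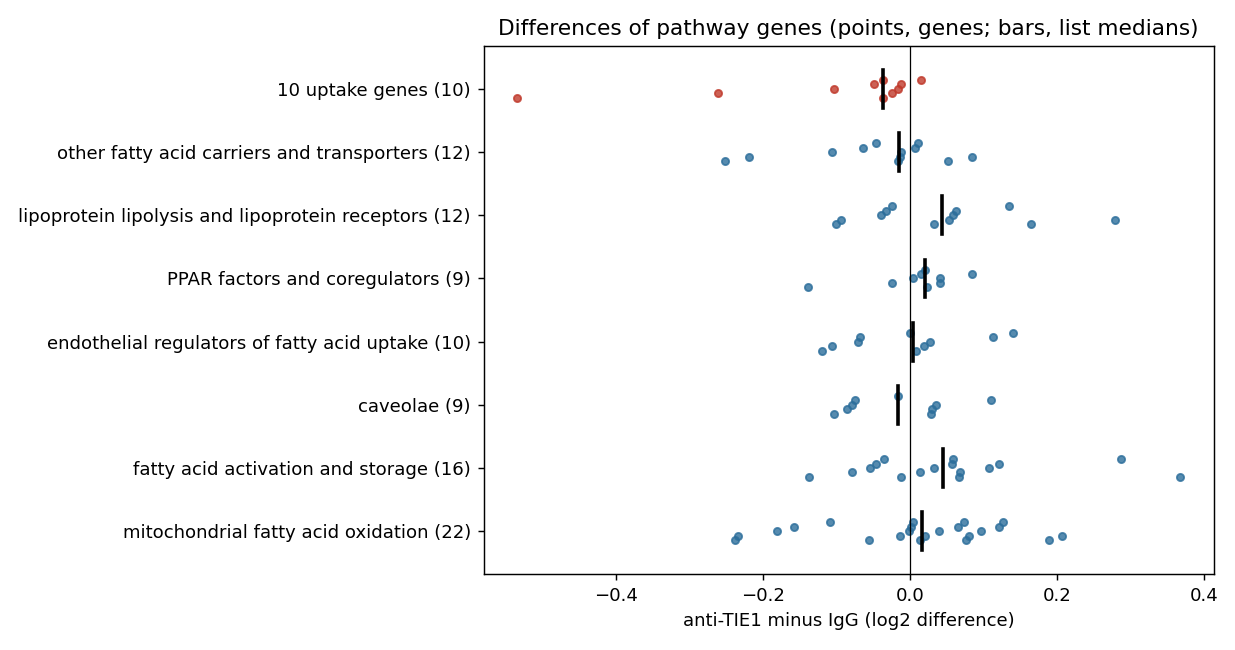
Difference in log2 intensity, anti-TIE1 minus IgG (horizontal axis), of the 10 genes (red) and of the measured genes in 7 pathway lists (blue, number of genes in brackets). Points are genes, spread vertically for sight only, and black bars are medians. Fabp4 at -0.54 and Cav1 at -0.26 lie apart from the other red points, and every list median is within 0.05 of 0.

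Levels averaged over the 10 genes were 9.22, 9.22, 9.30 and 9.18 (log2 intensity) on the IgG arrays and 9.10, 9.12, 9.11 and 9.18 on the anti-TIE1 arrays. The difference of these averages was -0.11 on the log2 scale, -0.06 when Fabp4 was left out and -0.03 when Cav1 was left out too. Fabp4 and Cav1 thus made up most of that difference, which was given no test because the genes were chosen with earlier results of these data known.

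The 10 genes did not vary as 1 block among the mice. Of the 45 pairs of them, 25 had a positive and 20 a negative Pearson's r over the 8 arrays, with a median of 0.01, and none passed an adjusted p under 0.05 in the exact permutation test, against 2 at an unadjusted p under 0.05. Lpl and Slc27a4 had r = 0.850 (exact permutation p = 0.00689, adjusted p = 0.31) and Spearman's rho = 0.786 (exact permutation p = 0.028, adjusted p = 0.781). Leaving out IgG 2 and anti-TIE1 3, the arrays farthest from the median, gave r = 0.536. Within the arrays with low hybridization controls r was 0.809, and within those with high ones 0.362. Pparg and Cpt1a had r = -0.743 (exact permutation p = 0.0379, adjusted p = 0.751) and rho = -0.762 (exact permutation p = 0.0368, adjusted p = 0.781), and r = -0.340 without the 2 arrays farthest from the median. Within the arrays with low controls their r was 0.206 and within those with high ones -0.923, each over 4 arrays. Fabp4 and Cav1, the genes with the largest differences, had r = 0.612 (exact permutation p = 0.10, adjusted p = 0.751).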

How the data were processed

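RNA of sorted lung EC was measured on 8 Clariom S arrays, 4 per treatment, grouped by the sample titles. The authors deposited a linear intensity for each probe set on each array, normalized by a method not given in the sources used here. Log2 of the deposited intensity was analysed with limma 3.58.1 in R 4.3.3 (lmFit and eBayes, anti-TIE1 minus IgG). P-values were adjusted by Benjamini and Hochberg over 22204 probe sets that are not array controls. No low-level filter was applied, and a gene with several probe sets was represented by its brightest. The fit was tested on simulated data with independent noise for each value. Such data hold no effects shared across an array, so that test does not cover them. Array brightness has no read depth, so the number of arrays limits the precision. The exact permutation test has 70 arrangements. The 10 genes, gene lists and tests were chosen with earlier results of these data known. Besides the 10 genes, the text names the 3 genes with the smallest p at or above the median level in each pathway list and, for Fabp4 and Cav1, the 2 genes with the highest r. Named besides, after their values were seen, are Pmp2, Fabp9, Fabp12, Ppbp, Car4 and the adipocyte markers. Promoter windows come from RefSeq (GRCm38.p6). Alternatives covered normalization, array weights, dim probe sets, the variance model, blocks, the exact Mann-Whitney test, the summary of probe sets and each array left out. Values within the low and high hybridization controls, and the difference between these arrays, were added after seeing the data.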

Additional observations from a re-analysis of the deposited data

Results flagged for a closer look

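In 4 of 78 groups of 4 arrays that were looked at, over the 10 genes, their average, the pathway genes named and the means of the pathway lists, 1 array lay far from the other 3 of its treatment. Chance gives about 1 in 20 groups, which is 3.9 here. Gpihbp1 measured 11.44 (log2 intensity) on IgG 3 and 11.52 to 11.53 on the other IgG arrays, a gap of 0.92 of the range, though that range was small. Angptl4 measured 7.53 on anti-TIE1 1 and 7.67 to 7.69 on the others of that treatment (gap of 0.857 of the range). Med1 measured 10.01 on IgG 4 and 10.36 to 10.40 on the other IgG arrays (0.896). Lipe measured 10.02 on anti-TIE1 2 and 9.45 to 9.54 on the others (0.842).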

How the results depend on the processing

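None of the 10 genes was called at an adjusted p under 0.05 under any of the 20 alternatives, 18 planned and 2 added after seeing the data. Fabp4 and Cav1 stayed lower throughout, at -0.76 to -0.42 and -0.39 to -0.18 with 1 array left out, and the average over the 10 genes was -0.12 to -0.083. Genes lower at an unadjusted p under 0.05 numbered 0 with the exact Mann-Whitney test and 0 to 2 with 1 array left out. There were 2 without IgG 4, Fabp4 and Cav1, and 1 without anti-TIE1 4, Cav1 in place of Fabp4. Of all 22204 probe sets, 742 were lower at that threshold without IgG 4 and 668 without anti-TIE1 4. Over all probe sets limma called 18 without IgG 4, 1 without IgG 1, 1 without anti-TIE1 4 and 0 without any other single array. Pathway genes at an unadjusted p under 0.05 numbered 0 to 3 lower and 0 to 4 higher over all alternatives. With array weights 3 of the 90 were lower and 1 higher, beside 800 lower and 554 higher of all 22204 probe sets. Arrays sharing a replicate number did not deviate together (correlations of -0.05 to 0.0066). In a fit with the replicate block Fabp4 stayed at -0.54 (adjusted p = 0.954 from limma). Of the 10 genes, 1 was then lower at an unadjusted p under 0.05 and 0 were called. Of all probe sets, 684 were lower at that threshold and 0 were called. Small differences turned sign. With array weights Lpl was at 0.014 and Scarb1 at -0.017, and Scarb1 was at -0.0066 with arrays centred on pan-endothelial markers. Within the low hybridization controls, with 2 arrays against 2, Cd36 was at 0.020, Fabp5 at 0.059, Lpl at 0.128 and Slc27a4 at 0.019. Within the high ones Pparg was at -0.011, Slc27a3 at 0.067 and Cpt1a at 0.033. With 1 array left out, ranges were -0.075 to 0.081 for Pparg, -0.125 to 0.018 for Cpt1a, -0.040 to 0.012 for Cd36, -0.090 to 0.069 for Lpl, -0.111 to 0.052 for Slc27a4, -0.085 to 0.00054 for Slc27a3, -0.058 to 0.138 for Scarb1, -0.113 to 0.064 for Mfsd2a, -0.0045 to 0.154 for Got2, -0.0044 to 0.084 for Ncoa1 and -0.0087 to 0.137 for Med1. The cause was not tested.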
